A study of Mus musculus with 14 samples.

Results

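Expression of 7 autonomic receptor genes was followed in HL-1 cells, an immortalised cell line of mouse atrial muscle. The genes were Adra1a, Adra1b, Adra2a, Adra2b, Adrb1, Chrm2 and Adora1, taken by name as adrenergic, muscarinic and adenosine receptors that act on atrial muscle. All 7 were found, 1 row each, among the 20193 genes of the deposited array table. The cells had been transfected with siRNA against Airn, a long non-coding RNA, or with a scrambled control. The groups were siAirn-001.1 (4 arrays), siAirn-001.2 (4 arrays) and siScramble (6 arrays), and each array was hybridised with total RNA of 1 sample. In all 3 groups the siRNA was given at 10 nM with RNAiMax. All groups, controls included, grew in Claycomb medium with serum, L-glutamine, antibiotics and 0.1 mM norepinephrine. The growth medium of every group thus held an agonist of the adrenergic receptors. HL-1 is 1 cell line, and the sources used here do not say how the 2 siAirn reagents differ. The labels call the arrays biological replicates without saying whether they came from separate cultures, so p-values cover the spread among arrays alone, which may be technical.

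The autonomic nerves set the rate, force and conduction of the atrium through G protein-coupled receptors. Norepinephrine acts on beta-1 receptors (Adrb1), which raise cyclic AMP through Gs, on alpha-1 receptors (Adra1a, Adra1b), which drive phospholipase C through Gq, and on alpha-2 receptors (Adra2a, Adra2b), which lower cyclic AMP through Gi. Acetylcholine acts on the M2 receptor (Chrm2) and adenosine on the A1 receptor (Adora1). Both couple to Gi and open the atrial potassium channel formed by Kcnj3 and Kcnj5, which slows the sinus node and shortens the atrial action potential.

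The targeted RNA was read first. As a percentage of the siScramble mean, Airn stood at 93.5, 89.2, 48.4 and 48.3 in the siAirn-001.1 arrays and at 96.2, 80.5, 41.4 and 45.4 in the siAirn-001.2 arrays, against 86.8 to 112.7 in the siScramble arrays. Airn was therefore no lower than in some controls in 3 arrays labelled siAirn (siAirn-001.1 arrays 1 and 2 and siAirn-001.2 array 1), and the receptor changes were also computed without them. The median log2 value of an array was 7.45 to 7.55, and pairs of arrays correlated over all genes at 0.988 to 0.998. As a gauge of the dim end of the scale, 1210 olfactory and vomeronasal receptor genes, known mainly from sensory neurons, were taken, and the 95th percentile of their siScramble means was 6.72 (log2). Of the atrial markers, 5 of 8 lay above that level in siScramble (Myl7, Myl4, Nppa, Kcnj3 and Tbx5), while Sln, Kcna5 and Gja5 did not. Of the general cardiac markers, 6 of 6 measured lay above it. All 5 smooth muscle markers, 3 of 6 fibroblast, 2 of 5 endothelial, 2 of 4 ventricular, 2 of 6 autonomic neuron and 1 of 4 leukocyte markers also did.

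Adra2b was lower and Adora1 higher in every siAirn array than in any siScramble array, and Adra1b was higher in every siAirn-001.1 array. The change passed the limma test at an adjusted p below 0.05 for 3 of the 7 receptors with siAirn-001.1 (5.96% of all genes passed), with 2 higher and 1 lower. It passed for 2 of 7 with siAirn-001.2 (0.951% of all genes), with 1 higher and 1 lower, and for 3 of 7 in the mean of both siAirn groups (4.13% of all genes), with 2 higher and 1 lower. These 3 comparisons share the siScramble arrays and are not independent of each other. The 7 receptors were chosen with earlier results of these data known, so the shares here and below describe them and do not test an excess. The groups did not overlap for 3 of 7 receptors with siAirn-001.1 (7.98% of all genes), for 2 of 7 with siAirn-001.2 (3.74%) and for 2 of 7 when all 8 siAirn arrays were set against siScramble (1.63%). The median log2 change over the 7 receptors in the mean of both siAirn groups was 0.135, against -0.0042 over all genes. In these bulk samples, fewer cells that express a gene and less RNA per cell cannot be told apart.

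**Figure D1:**
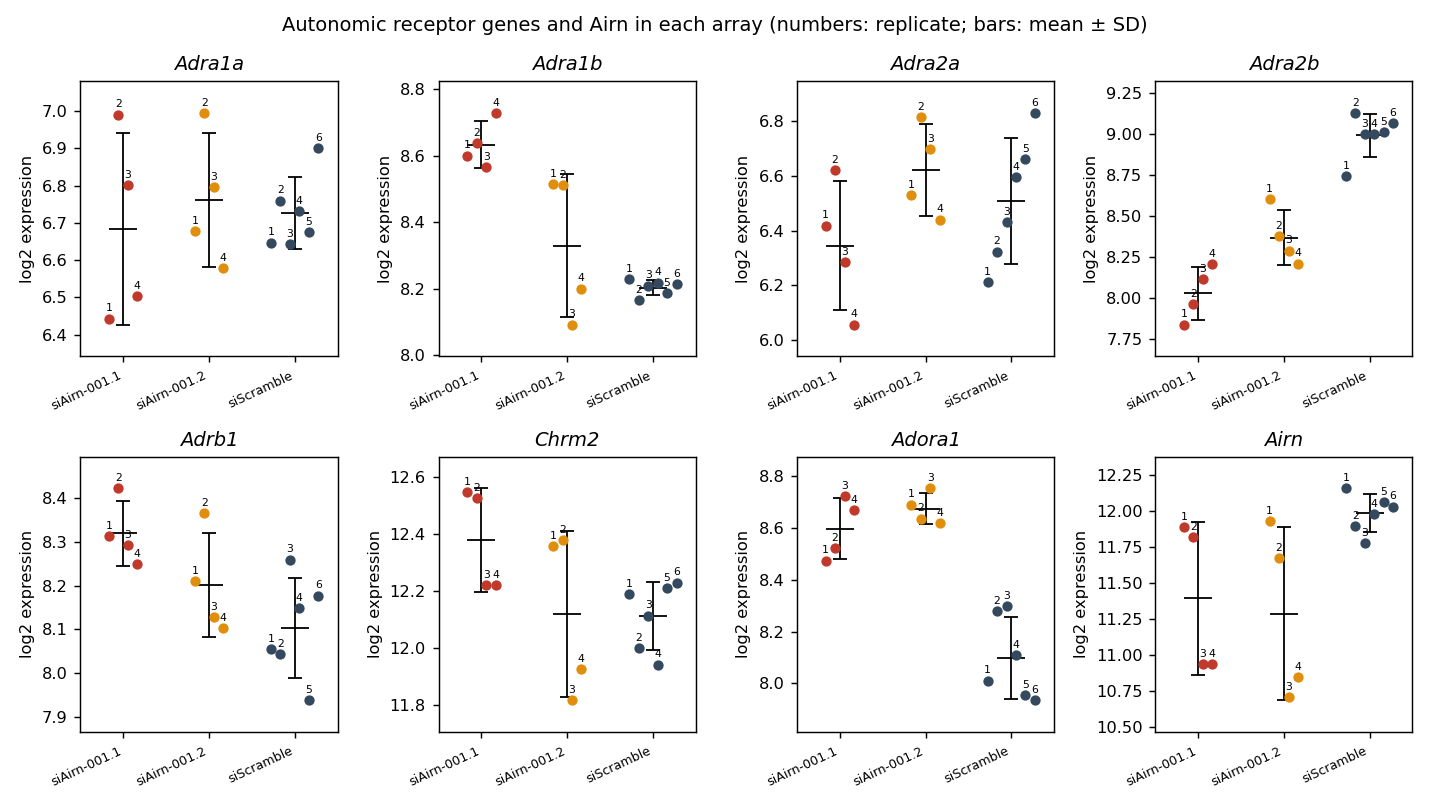
Log2 expression of the 7 receptor genes and Airn on each array, with 1 panel per gene on its own axis, siAirn-001.1, siAirn-001.2 and siScramble from left to right, replicate numbers beside the points, and bars at the group mean ± SD. All 8 siAirn arrays lie below the siScramble arrays for Adra2b and above them for Adora1.

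The alpha-2B receptor gene, Adra2b, had the largest change of the 7. The 250 bases before its RefSeq start (GRCm38.p6, plus strand, chr2:127362929-127363178) are shown because this gene carries the main finding, with the GC box (GGGCGG, searched on both strands) in capitals.
Adra2b: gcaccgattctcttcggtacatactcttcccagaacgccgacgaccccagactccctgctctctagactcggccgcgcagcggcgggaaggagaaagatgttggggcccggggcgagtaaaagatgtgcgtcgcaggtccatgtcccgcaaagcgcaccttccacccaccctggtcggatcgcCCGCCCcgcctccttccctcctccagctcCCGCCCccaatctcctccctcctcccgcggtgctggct
The window is 66.0% G or C, against a median of 52.4% over 32851 promoter windows of the same length. It holds 2 GC boxes, beginning 67 and 38 bases before the start, and a GC box occurs in 32.7% of all windows. The other motifs searched on both strands were TGACG, the core of the cyclic AMP response element (in 17.8% of all windows), the TATA box TATAAA (12.4%) and the GATA site AGATAA (9.99%), and these letters are not in this window. No matches of these motifs overlapped in any receptor window. A match is a run of letters only, and the files hold no measure of factor binding.

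The log2 level of Adra2b was 7.84, 7.96, 8.11 and 8.20 in the siAirn-001.1 arrays and 8.60, 8.37, 8.29 and 8.21 in the siAirn-001.2 arrays, against a lowest, median and highest siScramble array of 8.75, 9.01 and 9.13. The highest siAirn array was thus below the lowest control. On the linear scale the siAirn-001.1 arrays held 44.9% to 57.9% of the siScramble mean and the siAirn-001.2 arrays 58.1% to 76.2%. With siAirn-001.1 Adra2b fell by 0.96 ± 0.09 on the log2 scale (SE; 95% confidence interval -1.16 to -0.77; adjusted p = 4.42e-05). With siAirn-001.2 it fell by 0.62 ± 0.09 (-0.82 to -0.43; adjusted p = 0.00592). In the mean of both groups it fell by 0.79 ± 0.08 (adjusted p = 5.53e-05), the 11th lowest change of the 20193 genes. The exact two-sided permutation p was 0.00476 for each reagent alone and 0.000333 for all siAirn arrays, the smallest values these group sizes allow. The value for all siAirn arrays takes them as independent, though replicate numbers pair them across the reagents (correlations of deviations 0.318 to 0.534). The main limma test of the mean does so as well. Without the 3 arrays at control Airn level the log2 changes were -0.83 (adjusted p = 0.000374) with siAirn-001.1, -0.70 (0.00369) with siAirn-001.2 and -0.77 (0.000199) in the mean.

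The order of the arrays by Adra2b and by Airn differed between the reagents. In siAirn-001.1, Adra2b was lowest in arrays 1 and 2, where Airn stood at 93.5% and 89.2% of the control mean. In siAirn-001.2 it was lowest in arrays 3 and 4, where Airn stood at 41.4% and 45.4%, and both RNAs were higher in arrays 1 and 2. In both groups Adra2b was below all controls in the arrays whose Airn level was that of a control as well as in the others.

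Adora1, the A1 adenosine receptor gene, was higher with both reagents. The window before its outermost RefSeq start (GRCm38.p6, minus strand, chr1:134235458-134235707) is shown for its GC boxes, again in capitals.
Adora1: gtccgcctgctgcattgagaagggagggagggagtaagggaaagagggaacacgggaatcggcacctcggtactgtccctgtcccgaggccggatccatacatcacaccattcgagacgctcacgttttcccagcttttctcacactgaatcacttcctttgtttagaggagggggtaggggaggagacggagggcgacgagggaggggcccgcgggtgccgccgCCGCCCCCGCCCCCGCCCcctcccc
It is 64.4% G or C and holds 3 GC boxes in an unbroken run, beginning 25, 19 and 13 bases before the start, and no letters of the other motifs. The window of the gene's second listed start (chr1:134234857-134235106) is 65.2% G or C and has a match to none of the motifs searched.

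The log2 level of Adora1 was 8.47, 8.52, 8.72 and 8.67 in the siAirn-001.1 arrays and 8.69, 8.63, 8.75 and 8.62 in the siAirn-001.2 arrays, against 7.94, 8.06 and 8.30 in the lowest, median and highest siScramble array. All 8 siAirn arrays were above all controls, and the siAirn groups overlapped each other. With siAirn-001.1 Adora1 rose by 0.50 ± 0.08 (SE; 95% confidence interval 0.32 to 0.67; adjusted p = 0.00223). With siAirn-001.2 it rose by 0.58 ± 0.08 (0.40 to 0.75; adjusted p = 0.0043), and in the mean of both by 0.54 ± 0.07 (adjusted p = 0.000429), a fold change of 1.45. The exact permutation p was again the smallest possible, 0.00476, 0.00476 and 0.000333, and the last again takes the siAirn arrays as independent. Without the 3 arrays at control Airn level the changes were 0.60 (adjusted p = 0.00438), 0.57 (0.0136) and 0.58 (0.00144) for siAirn-001.1, siAirn-001.2 and the mean, and all 3 passed.

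Adra1b, the alpha-1B receptor gene, rose with siAirn-001.1. Its RefSeq entry has starts far apart on the minus strand of chromosome 11, and both windows are shown because they differ in base composition (chr11:43901238-43901487 before the outer start, chr11:43836490-43836739 before the inner). The array values do not tell which start was used.
Adra1b outer start: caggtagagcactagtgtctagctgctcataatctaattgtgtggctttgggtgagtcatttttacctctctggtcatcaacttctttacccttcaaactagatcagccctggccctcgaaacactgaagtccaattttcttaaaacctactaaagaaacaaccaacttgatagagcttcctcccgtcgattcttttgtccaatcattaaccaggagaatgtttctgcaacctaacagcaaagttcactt
Adra1b inner start: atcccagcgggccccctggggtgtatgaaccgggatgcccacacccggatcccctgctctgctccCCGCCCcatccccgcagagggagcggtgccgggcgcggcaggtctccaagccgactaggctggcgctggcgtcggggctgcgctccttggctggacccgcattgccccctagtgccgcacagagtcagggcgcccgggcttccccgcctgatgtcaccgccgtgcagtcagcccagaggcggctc
The outer window is 41.6% G or C with none of the motifs, and the inner is 72.8% G or C with 1 GC box, beginning 185 bases before the start.

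The log2 level of Adra1b was 8.60, 8.64, 8.56 and 8.73 in the siAirn-001.1 arrays and 8.51, 8.51, 8.09 and 8.20 in the siAirn-001.2 arrays, against 8.17, 8.21 and 8.23 in the lowest, median and highest siScramble array. The controls spread little (8.20 ± 0.02, mean ± SD, n = 6), all siAirn-001.1 arrays were above them, and the siAirn-001.2 arrays split, with arrays 1 and 2 above the control range, array 4 inside it and array 3 below it. With siAirn-001.1 the gene rose by 0.43 ± 0.08 (SE; 95% confidence interval 0.26 to 0.60; adjusted p = 0.00456; exact permutation p = 0.00476). With siAirn-001.2 the change was 0.13 (-0.04 to 0.30; adjusted p = 0.664), and in the mean of both groups 0.28 ± 0.07 (adjusted p = 0.0267). That last call was lost without the 3 arrays at control Airn level (0.25, adjusted p = 0.0778) and without siScramble arrays 5 and 6, whose numbers no siAirn array carries (0.28, adjusted p = 0.0599). It was also lost on leaving out any 1 of siScramble arrays 1 to 5 (adjusted p = 0.0568, 0.0735, 0.0517, 0.0639 and 0.0507). The siAirn-001.1 change kept its call in both cases (adjusted p = 0.0168 and 0.0142).

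**Figure D2:**
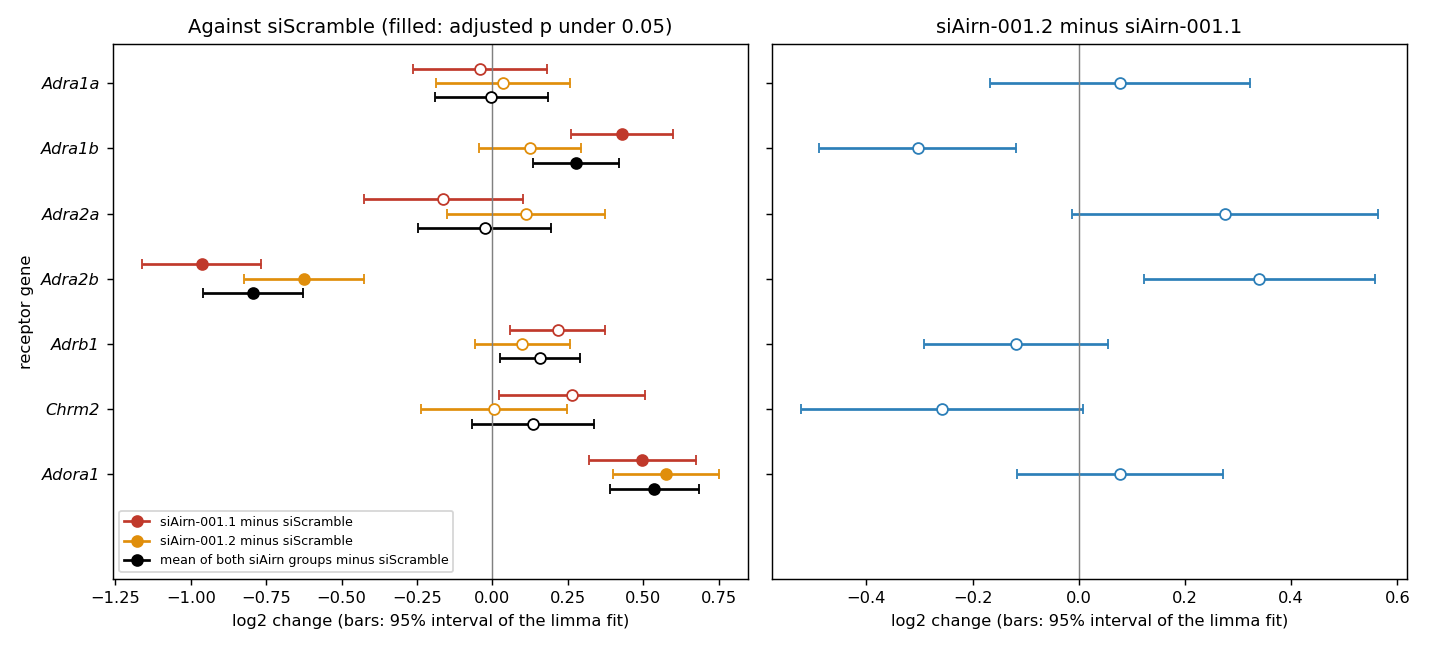
Log2 change of each receptor gene against siScramble with siAirn-001.1, siAirn-001.2 and the mean of both (left), and in siAirn-001.2 minus siAirn-001.1 (right), with 95% confidence intervals from the limma model and filled points for an adjusted p below 0.05. Adra2b lies below 0 with both reagents (-0.96 and -0.62), Adora1 above 0 with both (0.50 and 0.58), and Adra1b with siAirn-001.1 (0.43).

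Adrb1, the beta-1 receptor gene and the main target of norepinephrine in heart muscle, missed the threshold in each contrast. Its log2 level was 8.31, 8.42, 8.29 and 8.25 in the siAirn-001.1 arrays and 8.21, 8.37, 8.13 and 8.10 in the siAirn-001.2 arrays, against 7.94, 8.10 and 8.26 in the lowest, median and highest siScramble array. Array 4 of siAirn-001.1 lay inside the control range and the other 3 above it. The change with siAirn-001.1 was 0.22 (95% confidence interval 0.06 to 0.37; adjusted p = 0.106; exact permutation p = 0.019). With siAirn-001.2 it was 0.10 (adjusted p = 0.767), and in the mean of both 0.16 (0.03 to 0.29; adjusted p = 0.2).

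Chrm2, the M2 receptor gene, had its signal among the highest of the array (above 98.3% of all genes in siScramble), though levels of different probe sets are not amounts of RNA. Its log2 level was 12.54, 12.52, 12.22 and 12.22 in the siAirn-001.1 arrays and 12.36, 12.38, 11.82 and 11.93 in the siAirn-001.2 arrays, against 11.94, 12.15 and 12.23 in the lowest, median and highest siScramble array. Arrays 1 and 2 of both reagents were above all controls, while arrays 3 and 4 lay inside the control range with siAirn-001.1 and below it with siAirn-001.2. The change was 0.26 with siAirn-001.1 (95% confidence interval 0.02 to 0.51; adjusted p = 0.225; exact permutation p = 0.019) and 0.01 with siAirn-001.2 (adjusted p = 0.998). In the mean of both groups it was 0.14 (-0.07 to 0.34; adjusted p = 0.616). Arrays 1 and 2 of both reagents were also those with the higher Airn level, so replicate number and Airn level cannot be told apart.

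**Figure D3:**
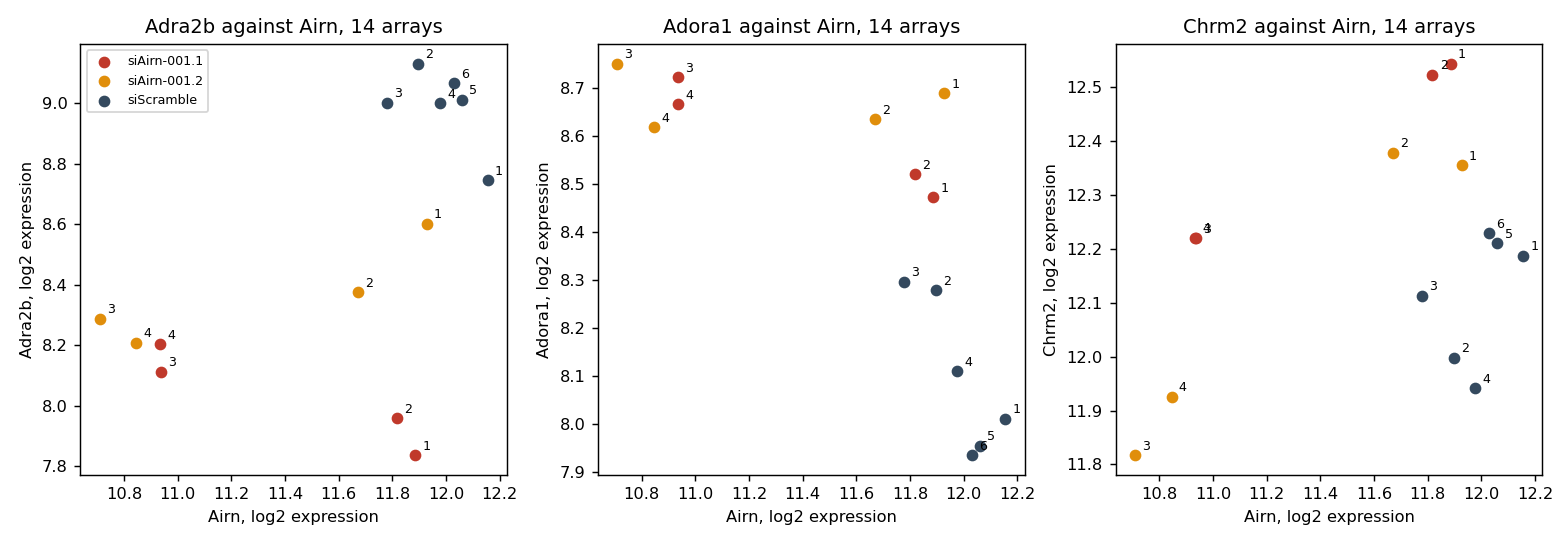
Log2 level of Adra2b, Adora1 and Chrm2 (vertical axes) against log2 level of Airn (horizontal axes), with 1 point per array and colours for siAirn-001.1, siAirn-001.2 and siScramble. In the Chrm2 panel the siAirn arrays with Airn near the control level lie highest, and in the Adra2b panel all siAirn arrays lie below the controls whatever their Airn level.

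Adra1a, the alpha-1A receptor gene, and Adra2a, the alpha-2A receptor gene, were the dimmest of the 7. The siScramble mean of Adra1a, 6.73, was just above the 95th percentile of the olfactory and vomeronasal genes and that of Adra2a, 6.51, below it, while the other 5 receptors were above it. Adra1a had log2 levels of 6.44, 6.99, 6.80 and 6.50 in the siAirn-001.1 arrays and 6.68, 6.995, 6.80 and 6.58 in the siAirn-001.2 arrays, against 6.64, 6.70 and 6.90 in the lowest, median and highest siScramble array. The groups overlapped, and the change in the mean of both siAirn groups was -0.003 (95% confidence interval -0.19 to 0.18; adjusted p = 0.997). Adra2a had 6.42, 6.62, 6.29 and 6.06 in the siAirn-001.1 arrays and 6.53, 6.82, 6.70 and 6.44 in the siAirn-001.2 arrays, against 6.21, 6.51 and 6.83 in the lowest, median and highest siScramble array. Its change was -0.03 (-0.25 to 0.19; adjusted p = 0.974), again with overlapping groups. The promoter windows of Adra2a, Adrb1 and Chrm2 each hold 1 GC box, those of Adra2a and Adrb1 also TGACG, and that of Adra2a TATAAA; Adra1a had no entry in the promoter table.

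The reagents were compared with each other as siAirn-001.2 minus siAirn-001.1, and the test passed for 0 of the 7 receptors (1.01% of all genes). The groups did not overlap for 2 of them (5.53% of all genes). Adra2b averaged 8.37 ± 0.17 with siAirn-001.2 and 8.03 ± 0.16 with siAirn-001.1 (SD, n = 4 each), a difference of 0.34 (95% confidence interval 0.12 to 0.56; adjusted p = 0.131). Adra1b averaged 8.33 ± 0.22 with siAirn-001.2 and 8.63 ± 0.07 with siAirn-001.1, a difference of -0.30 (-0.49 to -0.12; adjusted p = 0.113). For these 2 genes the unadjusted exact permutation p was 0.0286, the smallest that 4 against 4 arrays allow, and it ignores the pairing described next. The intervals of Adora1 (-0.12 to 0.27), Chrm2 (-0.52 to 0.01) and Adra2a (-0.01 to 0.56) included 0. The replicate numbers pair the siAirn arrays, and within the 4 pairs Chrm2 was lower with siAirn-001.2 in all 4 (-0.19, -0.14, -0.40 and -0.30) and Adra2a higher in all 4 (0.11, 0.20, 0.41 and 0.38). With the number as a block in a fit of the siAirn arrays, the intervals were -0.42 to -0.10 for Chrm2 (adjusted p = 0.137) and 0.10 to 0.45 for Adra2a (adjusted p = 0.139). Adra2b was also higher, and Adra1b and Adrb1 lower, with siAirn-001.2 in all 4 pairs, and no receptor passed under the block. The share of all genes with the same sign in all 4 pairs is not given, so these signs are a description only. Without the 3 arrays at control Airn level, the Adra2b difference was 0.13 (adjusted p = 0.627). That setting breaks the pairs, since it leaves out arrays 1 and 2 of siAirn-001.1 but only array 1 of siAirn-001.2. Within pairs 1 to 4 the Adra2b differences were 0.76, 0.42, 0.18 and 0.005.

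The deposited table carries the authors' own test of all siAirn arrays against siScramble, in which 292 genes had an adjusted p below 0.05. In the authors' deposited table Adra2b had a log2 difference of -0.794 and Adora1 of 0.536, each with an adjusted p of 0.00285. Adra1b, at 0.278 with an adjusted p of 0.174 in the authors' deposited table, did not pass there.

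The genes whose array values ran most like each receptor were named as the 3 highest Pearson correlations over the 14 arrays, a description in which the arrays share groups and normalisation. For Adra2b these were Nanos1 (r = 0.94), Igfbp4 (0.932) and Glipr2 (0.926), and after removal of the group means the correlations were 0.576, 0.645 and 0.623. For Adora1 they were Reep5 (0.919), Shmt2 (0.916) and Pex19 (0.906), with 0.501, 0.434 and 0.317 after removal of the group means. These genes were picked on the correlation over all 14 arrays, group differences included. Lower values within the groups are thus partly built into that choice and are no result about the receptors. For Chrm2 (Ank 0.972, Scgb3a1 0.971, Adprhl1 0.971) the values without group means stayed at 0.958 or above. For Adra1b the nearest were Pdlim4 (0.974), Pdp2 (0.97) and Arhgap31 (0.969), with 0.93, 0.896 and 0.888 without group means. For Adrb1 they were Myh7, a myosin heavy chain of slow and ventricular muscle (0.92), Slc25a45 (0.872) and Celsr3 (0.862), with 0.924, 0.752 and 0.777. The dim receptors had Tdrd1 (0.945), Col1a2 (0.944) and Gpr176 (0.939) nearest to Adra1a, with 0.961, 0.952 and 0.942 without group means, and Amh (0.928), Slc22a20 (0.92) and Hoxd12 (0.914) nearest to Adra2a, with 0.927, 0.92 and 0.893.

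Among the other receptors of the same families, 11 were measured and none passed the main limma test in any contrast. Of all genes, 5.96% passed with siAirn-001.1, 0.951% with siAirn-001.2, 4.13% in the mean and 1.01% between the reagents. At such shares no call among 11 genes is unremarkable. Of the 11, 6 lay above the olfactory level in siScramble (Adra1d, Adrb3, Chrm1, Chrm4, Adora2a and Adora3). The smallest p in this list belonged to Adrb3, with -0.26 in the mean of both siAirn groups (adjusted p = 0.123).

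The genes around the receptors were read in 8 lists with 146 genes measured, named the signalling genes here. They include the 11 other receptors and 24 genes of transmitter synthesis, uptake and breakdown, and were chosen with earlier results of these data known. In the mean of both siAirn groups 4 were higher and 2 lower, 4.11% of the lists and close to the 4.13% of all genes. With siAirn-001.1 there were 11 higher and 4 lower, 10.3% of the lists against 5.96% of all genes. With siAirn-001.2 there were 2 higher and 1 lower, 2.05% against 0.951%. The lists for the phospholipase C arm (14 genes), receptor desensitisation and RGS proteins (22), transmitter synthesis, uptake and breakdown (24) and cyclic AMP target genes (11) had no call in the mean. Their smallest p-values were those of Plcb4 (0.20, adjusted p = 0.085), Arrb1 (0.17, 0.201), Adk (-0.12, 0.213) and Sik1 (-0.18, 0.101).

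Of 15 electrical and calcium effectors, 2 rose in the mean (13.3%, against 4.13% of all genes called), and Kcnj3 rose most. Kcnj3, a subunit of the potassium channel that M2 and A1 receptors open, had log2 levels of 8.72, 8.60, 8.21 and 8.38 in the siAirn-001.1 arrays and 8.51, 8.42, 7.89 and 8.01 in the siAirn-001.2 arrays, against 7.31, 7.54 and 7.70 in the lowest, median and highest siScramble array. All 8 siAirn arrays were above all controls, and arrays 3 and 4 were the lower ones with both reagents. Kcnj3 rose by 0.94 with siAirn-001.1 (adjusted p = 0.000372), 0.67 with siAirn-001.2 (0.0164) and 0.81 ± 0.10 in the mean (SE; adjusted p = 0.000429). Kcnj5, the other subunit of that channel, did not pass in any contrast. Its change was 0.55 with siAirn-001.1 (adjusted p = 0.0933), -0.19 with siAirn-001.2 (0.86) and 0.18 in the mean (0.728). Between the reagents the Kcnj5 difference was -0.75 (adjusted p = 0.0882). Kcnj3 is also 1 of the atrial markers, whose mean log2 level over 8 genes was 9.50 to 9.59 in siAirn-001.1 and 9.11 to 9.34 in siAirn-001.2, against 9.07 to 9.27 in siScramble. The general cardiac list was at 12.55 to 12.63 in siAirn-001.1 and 12.28 to 12.53 in siAirn-001.2, against 12.30 to 12.47 in siScramble. The ventricular list was at 6.62 to 6.81 in siAirn-001.1 and 6.75 to 6.87 in siAirn-001.2, against 6.84 to 6.99 in siScramble. In siAirn-001.1 the means of the atrial and general cardiac lists thus lay above all controls and that of the ventricular list below them, while in siAirn-001.2 all 3 overlapped the controls. The ventricular genes did not move together in siAirn-001.1. Myh7 was higher (group mean 8.05 against 7.81 in siScramble), and Myl2 (7.12 against 7.65), Irx4 (6.04 against 6.23) and Hey2 (5.6 against 5.875) were lower. Irx4 and Hey2 lay below the olfactory level. Of the atrial genes, Kcna5 was lower (6.12 against 6.17). Tbx5 was the other atrial marker called (0.36, adjusted p = 0.0265), with Tnni3 of the cardiac list (0.33, 0.0064) and Kdr of the endothelial list (0.39, 0.0336), all higher. No marker of the ventricular, fibroblast, smooth muscle, neuron or leukocyte lists was called in the mean, and the part of these marker differences in the receptor changes was not tested.

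Of 26 genes of the cyclic nucleotide arm, Pde4a and Prkar2a rose and Adcy1 fell in the mean (11.5%, against 4.13% of all genes called). Pde4a, a phosphodiesterase that breaks down cyclic AMP, had 9.14, 9.05, 8.78 and 8.84 in the siAirn-001.1 arrays and 8.92, 8.80, 8.74 and 8.61 in the siAirn-001.2 arrays, against 8.23, 8.30 and 8.43 in the lowest, median and highest siScramble array. It rose by 0.64 with siAirn-001.1 (adjusted p = 0.000239), by 0.46 with siAirn-001.2 (0.0136) and by 0.55 ± 0.07 in the mean (0.000277), with no overlap between siAirn and control arrays. Prkar2a, a regulatory subunit of protein kinase A, rose by 0.44 ± 0.10 in the mean (adjusted p = 0.0228), a call lost without siScramble array 3 (0.43, 0.0526) and without siScramble arrays 5 and 6 (0.35, 0.0873). Adcy1, an adenylyl cyclase stimulated by calcium and calmodulin, had 8.62, 8.52, 8.46 and 8.60 in the siAirn-001.1 arrays and 9.23, 8.93, 9.13 and 9.07 in the siAirn-001.2 arrays, against 9.10, 9.15 and 9.28 in the lowest, median and highest siScramble array. All siAirn-001.1 arrays were below all others, and the siAirn-001.2 arrays overlapped the controls. Adcy1 fell by 0.62 with siAirn-001.1 (adjusted p = 7.17e-05), its change with siAirn-001.2 was -0.08 (0.803), and the reagents differed by 0.54 ± 0.07 (0.00418).

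Of 24 G protein subunits, Gnb4, a beta subunit, fell by 0.36 ± 0.08 in the mean (SE; adjusted p = 0.0127), with -0.31 in siAirn-001.1 (0.0486) and -0.41 in siAirn-001.2 (0.0406). These single-reagent calls were lost in 11 of 14 and 9 of 14 fits that each left out 1 array. Further genes passed with siAirn-001.1 alone and were named after their values were seen. Arrb1 (beta-arrestin 1), Kcnq1 and Kcne1 (subunits of the slow delayed rectifier), Cacnb2 (a calcium channel subunit), Nt5e (which makes adenosine from AMP), Plcb4 and Gnb3 rose by 0.26 to 0.72, and Gna11 and Pde2a fell by 0.26 and 0.46. Over the 14 fits that each left out 1 array, the call was lost in 10 for Plcb4, 8 for Gna11, 7 for Kcne1, 2 for Arrb1 and 1 for Nt5e, and in none for Gnb3, Pde2a, Cacnb2 and Kcnq1. Whether their changes differed between the reagents was tested in the same model, and the difference passed for Cacnb2 (-0.40, adjusted p = 0.0202), Nt5e (-0.996, 0.00896) and Pde2a (0.46, 0.0495). With the replicate numbers, which pair the siAirn arrays, as a block in a fit of the siAirn arrays alone, Cacnb2 and Pde2a missed the threshold (adjusted p = 0.0639 and 0.0557). With only the siAirn groups in a fit without the block, all 3 missed it (adjusted p = 0.128 for Cacnb2, 0.106 for Nt5e and 0.108 for Pde2a). Without the 3 arrays at control Airn level, Arrb1, Kcnq1, Kcne1, Nt5e and Plcb4 missed it with siAirn-001.1 (adjusted p = 0.165, 0.134, 0.329, 0.0566 and 0.0605).

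**Figure D4:**
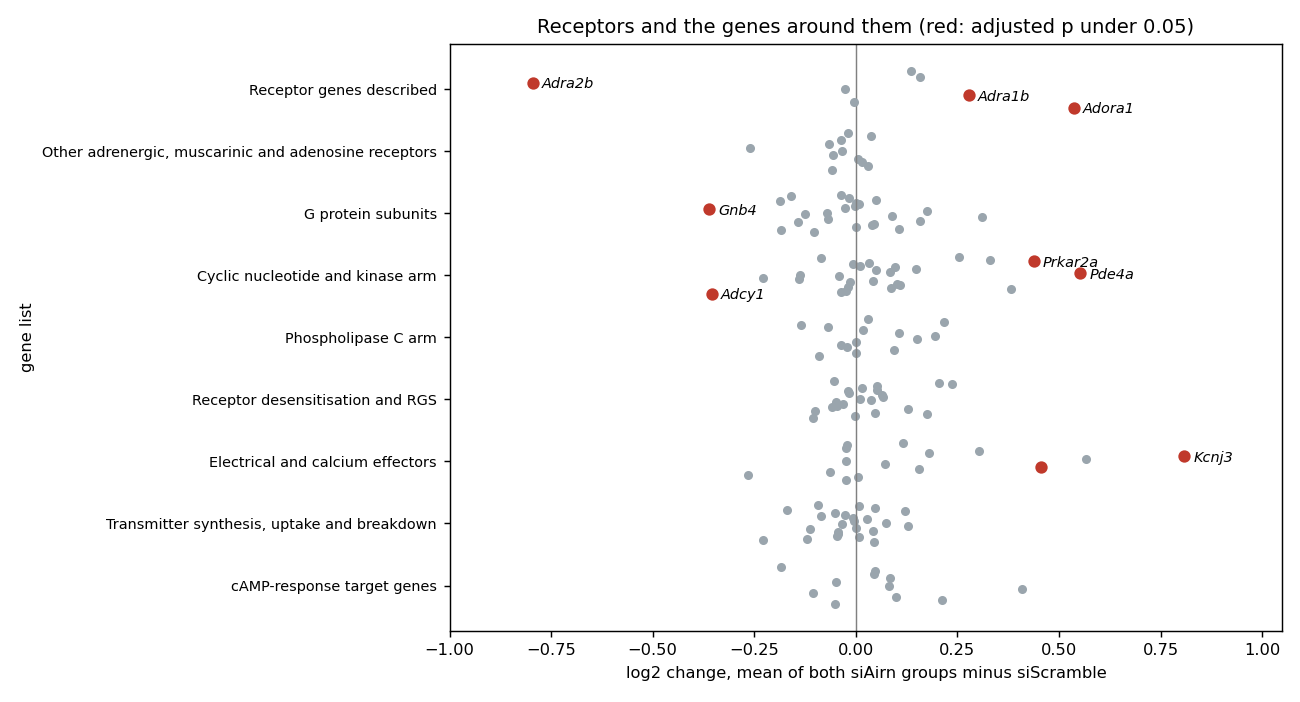
Log2 change of the mean of both siAirn groups from siScramble for the receptor genes and the 8 signalling lists, with 1 point per gene and red points for genes with an adjusted p below 0.05. Most genes lie near 0, and Kcnj3 (0.81) and Pde4a (0.55) lie highest among the called signalling genes.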

How the data were processed

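Total RNA of 14 HL-1 samples was hybridised to Affymetrix arrays. The authors deposited log2 expression values per array and gene. The submitters' processing notes name RMA and limma, with neither version nor role. Array model, build and annotation were not given in the sources used here. RMA equalises the distributions of arrays, which hides a shift common to most genes. The authors' own log2 difference and p-value per gene stand in the same deposited table, per the file headers, and a second table holds the same values to 2 decimals.

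The log2 values were used unchanged. A model of 3 group means was fitted to 20193 genes in R 4.3.3 by limma 3.58.1 (eBayes defaults, 11 residual and 5.31 prior degrees of freedom), with two-sided tests, Benjamini-Hochberg adjustment over all genes and a threshold of 0.05. It was also run on simulated data with independent arrays, so that run does not cover the pairing of the siAirn arrays. Single genes were also tested by exact permutation of arrays, which ignored the replicate pairs. The number of arrays limits the precision.

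The members and lists were chosen with earlier results of these data known. The rule named all receptors, the 3 genes most like each (unnamed gene models left out), the signalling genes called in the mean contrast and, in lists without a call, the gene with the smallest p; some results under it are not reported here. Of 153 list entries, 146 were measured. Promoters are from RefSeq (GRCm38.p6), matched by symbol for 6 of 7 receptors. Replicate numbers paired the siAirn groups with each other (correlations of deviations 0.318 to 0.534) but not with siScramble (-0.429 to 0.234). Among the siAirn-001.2 arrays, each siAirn-001.1 array matched its own number best. The pairing comes from the data, not the labels. Alternatives were array weights, median centring, the rounded table, another prior, a dimness filter, other groupings, a replicate block and leaving out arrays.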

Additional observations from a re-analysis of the deposited data

Results flagged for a closer look

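In siScramble, array 1 had the lowest Adra2b level (8.75, log2), set apart from the other 5, and it was still above all siAirn arrays. Array 6 of siScramble had an Adk level of 11.88, below the next at 12.02. Both gaps passed Dixon's test, which chance flags in about 1 of 20 groups, and 78 groups were tested.

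The change against siScramble differed between the reagents, by the test of siAirn-001.2 minus siAirn-001.1, for Adcy1 (0.54), Pde2a (0.46), Cacnb2 (-0.40), Nt5e (-0.996) and Per1 (-0.32). Per1 missed the threshold in 12 and Pde2a in 11 of the 14 fits that each left out 1 array, Cacnb2 in 3, and Adcy1 and Nt5e in none. With the replicate block on the siAirn arrays alone, Per1, Cacnb2 and Pde2a missed it (adjusted p = 0.109, 0.0639 and 0.0557). With only the compared groups in the fit and no block, Nt5e, Cacnb2, Pde2a and Per1 missed it (adjusted p = 0.106, 0.128, 0.108 and 0.212).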

How the results depend on the processing

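The changes of Adra2b and Adora1 with each reagent and in the mean passed the threshold under all alternatives run, leaving out each array in turn included. On leaving out 1 array, the log2 change of Adra2b in the mean ran between -0.84 and -0.76 and that of Adora1 between 0.50 and 0.58, and the number of receptors called stayed at 3 (siAirn-001.1) and 2 (siAirn-001.2), and was 2 to 3 in the mean and 0 to 1 between the reagents. The 1 receptor called between the reagents with array weights, and on leaving out siAirn-001.2 array 1 or 2, was Adra1b (-0.37, -0.36 and -0.36; adjusted p = 0.0396, 0.046 and 0.0371). Array weights also brought Adrb1 with siAirn-001.1 past the threshold (0.24, adjusted p = 0.0433). With the 8 siAirn arrays as 1 group, Adra1b and Adcy1 missed it in the mean (adjusted p = 0.0971 and 0.114).

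A replicate block over all arrays gave 11 signalling genes called in the mean (6 without it) and 9 between the reagents (5 without it). Under it Adra1b missed the threshold in the mean (adjusted p = 0.0534), and the changes of Adra1a and Adra2a in the mean were 0.0275 and 0.092, the same values as without siScramble arrays 5 and 6. The block changed no other receptor call. Adrb3 and Sik1, lower in siAirn, passed in the mean under the block (-0.36, adjusted p = 0.0169; -0.26, 0.025), with array weights and without siScramble arrays 5 and 6. With array weights 15 signalling genes were called in the mean, 9 with siAirn-001.2 (3 in the main model) and 15 between the reagents. Between the reagents the count was also 1 with only the compared groups in the fit, 10 without the dimmest 0.25 of genes and 14 without the 3 arrays at control Airn level. In that last fit 4.95% of all genes were called between the reagents, against 1.01% in the main model. For the other settings in this paragraph the share of all genes is not given. Their counts thus describe the fits and are no result about the signalling genes. On leaving out 1 array, signalling counts were 10 to 18 with siAirn-001.1, 2 to 3 with siAirn-001.2, 4 to 8 in the mean and 2 to 14 between the reagents.

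The changes near 0 turned sign. Adra1a in the mean was 0.0025 with array weights and 0.0057 after median centring of each array, and Adra2a was 0.0494 with array weights. Chrm2 with siAirn-001.2 was -0.0415 with array weights and -0.0727 without the 3 arrays at control Airn level, where the Adora1 difference between the reagents was -0.0265. On leaving out 1 array, Adra1a ran from -0.1441 to 0.0382 with siAirn-001.1, from -0.0426 to 0.0965 with siAirn-001.2, from -0.0544 to 0.0367 in the mean and from -0.003 to 0.1793 between the reagents. Chrm2 with siAirn-001.2 ran from -0.0805 to 0.1068, and Adra2a in the mean from -0.0855 to 0.0381. The cause of these shifts was not tested. The settings that leave out the 3 arrays or siScramble arrays 5 and 6, and the block on siAirn arrays alone, were chosen after seeing the data. The number of arrays limits what could be detected, and Adra1a and Adra2a lie near the dim end of the scale.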
